A study of Mus musculus with 14 samples.

Results

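Supt6 was overexpressed together with Rnaseh1 in mouse oocytes, and the messenger RNA of these oocytes was set against that of oocytes with Rnaseh1 alone. The comparison used 4 of the 14 libraries of the series, 2 with Rnaseh1 plus Supt6 and 2 with Rnaseh1, in a table the labels call the rescue set. A further 2 libraries of that table, from oocytes that overexpressed the red fluorescent protein mCherry, gave the control level. All 6 came from oocytes that carried an overexpressed gene, and no group received Supt6 without Rnaseh1. The labels name no strain, age or oocyte stage for the rescue set, do not say how the genes were delivered, and give no origin, such as separate animals or pools, for replicate libraries, so p-values here cover the spread between these libraries, which may be technical. Values are transcripts per 1000000 transcripts (TPM), a level per transcript length that keeps no read depth. Of 35341 gene symbols, 12859 reached a TPM of at least 1 in 2 or more of the 6 libraries and were tested.

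R-loops are stretches of DNA in which a nascent RNA pairs with one strand and leaves the other strand single. RNase H1, the protein of Rnaseh1, degrades the RNA of such hybrids. Spt6, the protein of Supt6, is a histone chaperone that moves along genes with RNA polymerase II, puts nucleosomes back behind it and is needed for the methylation of histone H3 at lysine 36 (H3K36) over transcribed genes. Fully grown oocytes live on messenger RNA stored during growth, and transcription stops when chromatin surrounds the nucleolus.

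Supt6 (chromosome 11, 78206746 to 78245987 on GRCm38) was at 28.2 and 21 TPM in the libraries with Rnaseh1 plus Supt6, against 3.01 and 2.55 TPM with Rnaseh1 and 3.28 and 3.14 TPM with mCherry. Both libraries that received it stood above the other 4, and the log2 fold change over Rnaseh1 was 2.75 (SE 0.23, limma adjusted p = 6.0e-05). Rnaseh1 (chromosome 12, 28649602 to 28659589) was at 2270 and 2017 TPM with Rnaseh1 plus Supt6, at 1243 and 625 TPM with Rnaseh1 and at 125 and 114 TPM with mCherry. The oocytes with Supt6 therefore held more Rnaseh1 messenger RNA than those with Rnaseh1 alone, by 1.28 on the log2 scale (SE 0.28, limma adjusted p = 0.0062). That difference did not pass after median centring (0.76, adjusted p = 0.057) or after removal of the trend with GC content described later (0.37, adjusted p = 0.3), nor against a minimum log2 change of 1. Supt6 itself passed in each of those fits. The added Supt6 and the amount of Rnaseh1 messenger RNA cannot be told apart as the difference between these groups.

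The libraries with Rnaseh1 stood apart from the other 4. The first principal component held 83.7% of the variance and placed the libraries with Rnaseh1 plus Supt6 at -36.3 and -38.3, those with Rnaseh1 at 103.7 and 105.6, and those with mCherry at -64.7 and -70. Genes with at least 1 TPM numbered 11958 and 11984 with Rnaseh1 plus Supt6, 11035 and 10892 with Rnaseh1 and 12213 and 12230 with mCherry. The mean GC content of transcripts, weighted by TPM, was 48.2% in both libraries with Rnaseh1 plus Supt6, 46.7% and 46.5% with Rnaseh1 and 48.4% in both with mCherry. The 10 oocyte markers summed to 15936 and 16748 TPM with Rnaseh1 plus Supt6, to 4939 and 4694 TPM with Rnaseh1 and to 15760 and 16854 TPM with mCherry, and none was listed at 0 in all 4 compared libraries. Not all of the 10 shared this difference. With Supt6 added 6 rose and 4 did not pass, over log2 fold changes from -0.17 to 3.32. The 15 granulosa and cumulus markers, for the cells around the oocyte, summed to 49.1 and 54.7 TPM with Rnaseh1 plus Supt6 and to 55.0 and 45.9 TPM with Rnaseh1, and 4 were listed at 0. The 9 theca and stroma markers summed to 3.35 and 3.93 against 2.78 and 1.53 TPM, and the 12 markers of blood, endothelium and immune cells to 32.5 and 33.9 against 5.86 and 9.61 TPM, with 3 and 9 listed at 0. With mCherry the granulosa list summed to 55.9 and 54.1, the theca list to 3.09 and 3.1 and the blood list to 33.6 and 37.6 TPM. Of the last list 2 were tested and both rose with Supt6. The macrophage marker Cd68 rose by 1.60 and the endothelial marker Pecam1 by 1.94 on the log2 scale. With the GC trend removed, 1 of the 2 was called higher, and their part in the results was not tested. In libraries of this kind, a changed level in a cell and a changed share of another RNA in the TPM total cannot be told apart.

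Most tested genes differed between the oocytes with Rnaseh1 plus Supt6 and those with Rnaseh1. With Supt6 added, 5343 genes rose (41.6% of the genes tested) and 2235 fell (17.4%) at a limma adjusted p under 0.05, together 58.9%. A change of at least 2-fold was found for 3843 of the genes that rose and 1201 of those that fell, and one of at least 8-fold for 345 and 12. The rises were thus more numerous and larger than the falls, with the 5th percentile of all log2 fold changes at -1.40 and the 95th at 2.57. The median of all genes was 0.44, and the median standard error 0.23. Among the genes tested, 76 were at 1 TPM or more in both libraries with Rnaseh1 plus Supt6 and listed at 0 in both with Rnaseh1, of which 74 are among the rises. The other way round there were 25, all among the falls.

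The excess of rises depended on how the libraries were scaled. In the deposited scale, 70.5% of the 7578 calls were rises. That share was 46.6% once the libraries were centred on their medians (3370 rises and 3855 falls), 48.1% with quantile normalization (3472 and 3747) and 50.5% when a smooth trend with GC content was taken out (3230 and 3168). The median of all genes was -0.07, -0.05 and -0.01 in those fits. Of the 7578 calls, 5605 kept their direction and their side of the threshold with centring, 5648 with quantile normalization and 4996 with the GC trend taken out. Gene lists are therefore also given relative to the median of all genes.

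The oocytes with Rnaseh1 plus Supt6 lay close to the mCherry oocytes. Across the tested genes the median absolute log2 fold change was 0.80 against Rnaseh1 and 0.29 against mCherry. Against mCherry, 734 genes were higher (5.71%) and 977 lower (7.6%) with Rnaseh1 plus Supt6 at a limma adjusted p under 0.05. Those counts rested on every library of both groups, since leaving out any 1 of the 4 left 24 to 127 higher and 41 to 132 lower. With the trend with GC content removed, 810 were higher and 546 lower. Calls of single genes against mCherry given below share these limits, and were not followed gene by gene in other fits. Both comparisons use the same libraries with Rnaseh1 plus Supt6, so the values of the 3 groups are given side by side below.

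**Figure D1:**
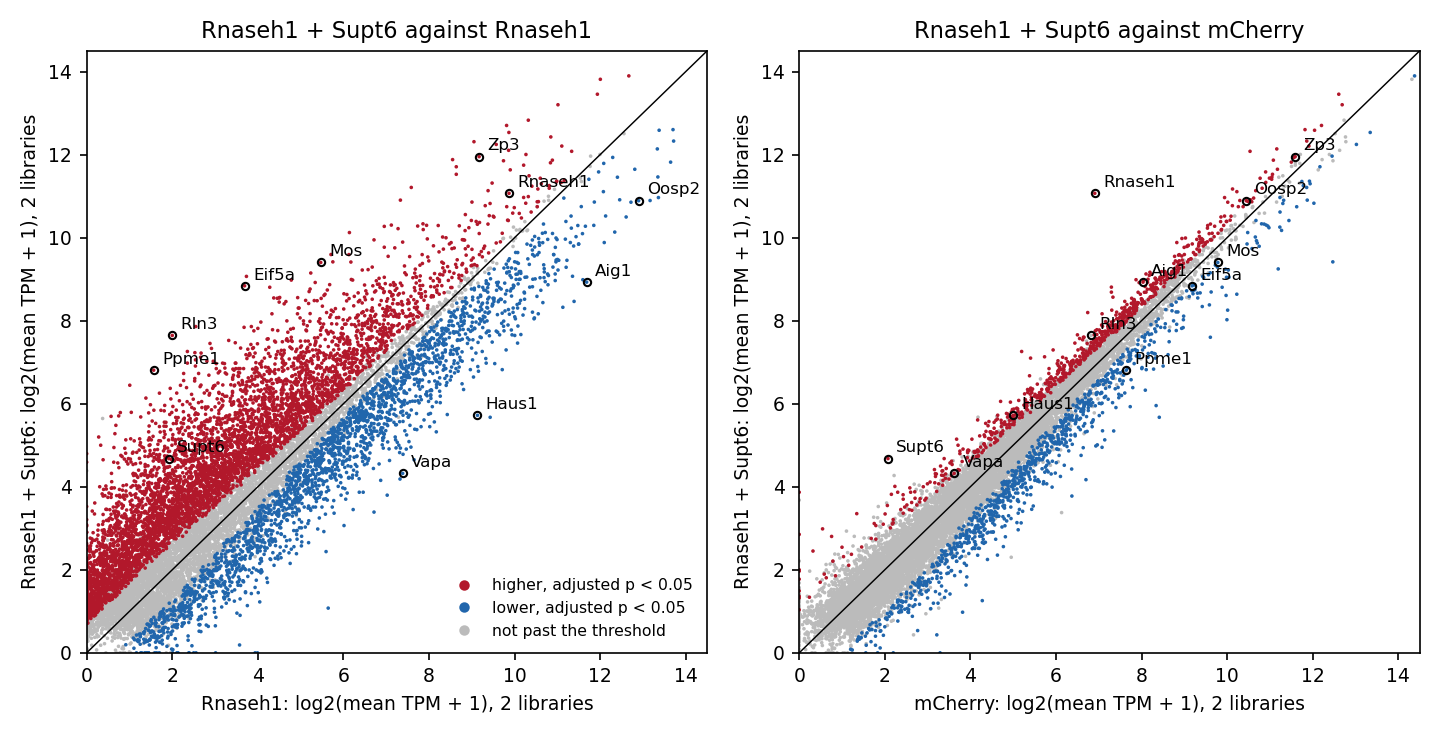
Each point is 1 of the 12859 genes, with log2(mean TPM + 1) of the 2 libraries with Rnaseh1 plus Supt6 on the vertical axis and of the 2 with Rnaseh1 (left) or mCherry (right) on the horizontal axis, coloured by the limma call. The cloud is wide on the left, with 5343 genes above and 2235 below the threshold, and narrow on the right, with 734 and 977.

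Among the genes that rose most was Rln3, which encodes the neuropeptide hormone relaxin-3 (chromosome 8, 84042929 to 84045000). It was at 203 and 195 TPM with Rnaseh1 plus Supt6, against 1.97 and 4.03 TPM with Rnaseh1 and 105 and 118 TPM with mCherry, a log2 fold change of 5.69 over Rnaseh1 (SE 0.23, limma adjusted p = 3.1e-06). Its level with Supt6 also stood above mCherry, by 0.83, which did not pass (limma adjusted p = 0.062). Of the 9 relaxin family genes in the table only 1 other was tested, Insl6, at 0.06.

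Ppme1, whose protein removes the methyl group from the catalytic subunit of the phosphatase PP2A (chromosome 7, 100326737 to 100372307), was at 109 and 114 TPM with Rnaseh1 plus Supt6. It was at 1.80 and 2.13 TPM with Rnaseh1 and at 195 and 203 TPM with mCherry. The log2 fold change over Rnaseh1 was 5.25 (SE 0.12, limma adjusted p = 8.9e-07), and the gene remained lower than with mCherry, by -0.83 (limma adjusted p = 0.0094). Eif5a, a translation factor that carries the modified amino acid hypusine (chromosome 11, 69916714 to 69921958), was at 444 and 470 TPM with Rnaseh1 plus Supt6, against 12.2 and 11.6 TPM with Rnaseh1 and 564 and 597 TPM with mCherry. It rose by 5.15 (SE 0.09, limma adjusted p = 8.9e-07), and processed pseudogenes of this gene make its value uncertain.

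The other 12 of the 15 largest rises, between 4.69 and 5.47 on the log2 scale, had a limma adjusted p of 6.9e-05 or less. Nrbp1, which encodes a kinase-like adaptor, was at 82.8 and 89.4 TPM with Rnaseh1 plus Supt6, against 0.59 and 1.43 TPM with Rnaseh1 and 138 and 147 TPM with mCherry. Lamtor1, the lysosomal anchor of the Ragulator complex that recruits mTORC1, was at 227 and 234 TPM, against 3.38 and 6.32 TPM with Rnaseh1 and 209 and 228 TPM with mCherry. With Supt6 added, Lamtor1 overlapped its mCherry levels and Nrbp1 stood between the other groups. Neither passed against mCherry (limma adjusted p of 0.87 and 0.066). Fbxw4 and Fbxl6 encode F-box proteins, which bring substrates to SCF ubiquitin ligases. Fbxw4 was at 516 and 555 TPM, against 10.1 and 14.4 TPM with Rnaseh1 and 451 and 479 TPM with mCherry. Fbxl6 was at 140 and 158 TPM, against 4.88 and 4.65 TPM with Rnaseh1 and 302 and 300.0 TPM with mCherry, and it remained lower than with mCherry (-1.01, limma adjusted p = 0.0044).

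Cdipt makes phosphatidylinositol, Elovl1 lengthens very long fatty acids and Acot8 splits acyl-CoA esters in peroxisomes. Cdipt was at 65.2 and 73.4 TPM with Rnaseh1 plus Supt6, against 2.87 and 0.36 TPM with Rnaseh1 and 107 and 110.0 TPM with mCherry. Elovl1 was at 148 and 156 TPM, against 5.01 and 3.20 TPM with Rnaseh1 and 186 and 178 TPM with mCherry. Acot8 was at 55.0 and 53.5 TPM, against 0.74 and 0.71 TPM with Rnaseh1 and 72.4 and 77.0 TPM with mCherry. Each of the 3 stood with Supt6 between the other groups, but none passed against mCherry (limma adjusted p of 0.4, 0.4 and 0.087).

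Fgf8, a growth factor secreted by oocytes, was at 131 and 120.0 TPM with Rnaseh1 plus Supt6, against 2.65 and 5.57 TPM with Rnaseh1 and 142 and 154 TPM with mCherry. The small GTPase gene Rac3 was at 52.5 and 56.3 TPM, against 0.70 and 1.42 TPM with Rnaseh1 and 76.1 and 87.5 TPM with mCherry. Limd2, a gene of a LIM-domain protein, was at 49.6 and 51.9 TPM, against 0.47 and 0.50 TPM with Rnaseh1 and 45.1 and 42.2 TPM with mCherry. All 3 were at 5.57 TPM or less with Rnaseh1, so their fold changes on the log2(TPM + 1) scale understate the change. Tomm40, the channel through which proteins enter mitochondria, was at 41.7 and 45.5 TPM, against 0.73 and 0.48 TPM with Rnaseh1 and 41.4 and 48.5 TPM with mCherry. Rsc1a1 was at 26.9 and 26.7 TPM, was listed at 0 in both libraries with Rnaseh1, and was at 26.4 and 29.9 TPM with mCherry. It lies within the gene Ddi2 on the same strand, so reads of both genes can be mixed and its value is uncertain.

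**Figure D2:**
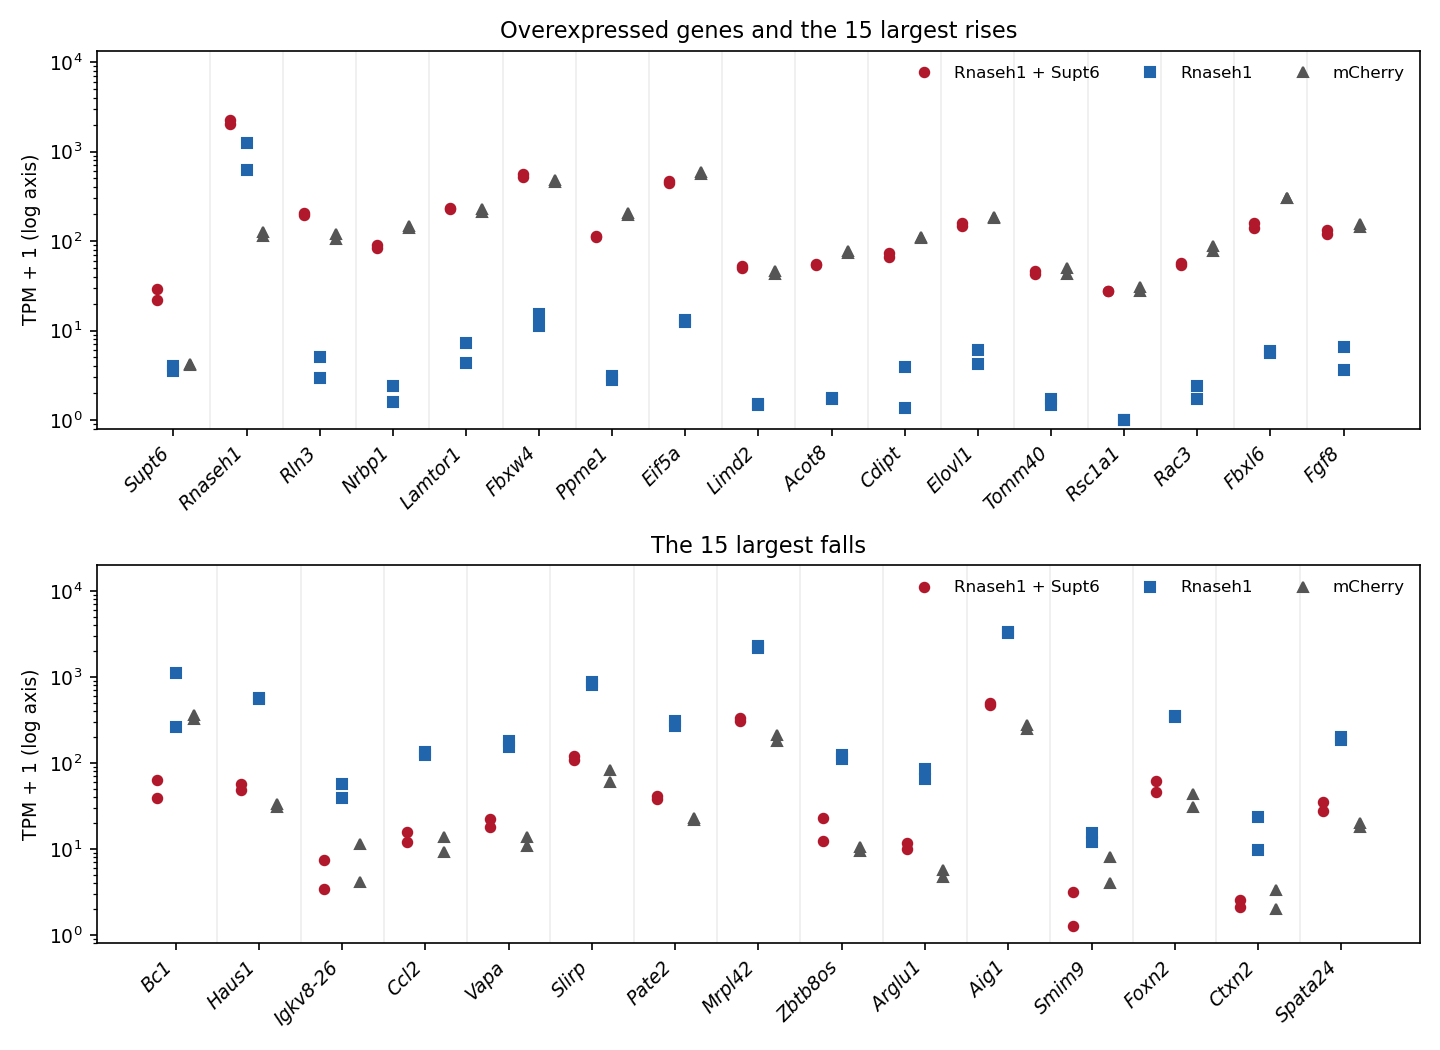
TPM + 1 on a log axis in each of the 6 libraries for Supt6, Rnaseh1 and the 15 genes that rose most (top) and the 15 that fell most (bottom), with Rnaseh1 plus Supt6 at the left of each column, Rnaseh1 in the middle and mCherry at the right. For Rln3, Ppme1 and Eif5a, as for the other 12 largest rises, both libraries with Rnaseh1 lie far below the other 4. For Haus1 and Vapa they lie above, at 554 and 565 TPM and at 179 and 153 TPM.

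Among the genes that fell most with Supt6 added was Haus1, a subunit of augmin, the complex that branches spindle microtubules. It was at 46.9 and 56.5 TPM with Rnaseh1 plus Supt6, against 554 and 565 TPM with Rnaseh1 and 29.9 and 32.1 TPM with mCherry. The log2 fold change was -3.42 against Rnaseh1 (SE 0.12, limma adjusted p = 2.1e-06) and 0.72 against mCherry (limma adjusted p = 0.012), so that it stayed above the mCherry level. Vapa, which tethers the endoplasmic reticulum to other membranes (chromosome 17, 65578327 to 65613555), was at 16.8 and 21.2 TPM, against 179 and 153 TPM with Rnaseh1 and 12.8 and 9.90 TPM with mCherry. It fell by 3.07 (SE 0.18, limma adjusted p = 1.2e-05) and was 0.70 above mCherry (limma adjusted p = 0.048).

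The other 13 of the 15 largest falls lay between -3.45 and -2.63 with limma adjusted p of 0.0027 or less. Slirp, an RNA-binding protein that stabilises mitochondrial messenger RNA, was at 118 and 106 TPM with Rnaseh1 plus Supt6, against 867 and 806 TPM with Rnaseh1 and 82.7 and 59.6 TPM with mCherry. Mrpl42, a protein of the mitochondrial ribosome, was at 332 and 305 TPM, against 2292 and 2178 TPM with Rnaseh1 and 209 and 179 TPM with mCherry. Zbtb8os, a cofactor of the tRNA ligase, was at 22.2 and 11.4 TPM, against 123 and 109 TPM with Rnaseh1 and 9.41 and 8.44 TPM with mCherry. In each of the 3 the libraries with Supt6 lay above both mCherry libraries and far below both with Rnaseh1. Against mCherry, Slirp and Mrpl42 passed and Zbtb8os did not (limma adjusted p of 0.035, 0.0072 and 0.12).

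Aig1, which encodes a membrane hydrolase of lipids, had the highest level among these 15 genes. It was at 497 and 475 TPM with Rnaseh1 plus Supt6, against 3335 and 3238 TPM with Rnaseh1 and 272 and 249 TPM with mCherry, and fell by 2.75 (SE 0.07, limma adjusted p = 1.2e-06). The chemokine gene Ccl2 was at 11.1 and 14.8 TPM, against 134 and 124 TPM with Rnaseh1 and 12.6 and 8.28 TPM with mCherry. The forkhead transcription factor gene Foxn2 was at 44.5 and 60.2 TPM, against 340.0 and 346 TPM with Rnaseh1 and 29.5 and 42.8 TPM with mCherry. Against mCherry, Ccl2 and Foxn2 were at 0.30 and 0.53 and did not pass (limma adjusted p of 0.46 and 0.14).

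Arglu1, a regulator of splicing, was at 9.02 and 10.8 TPM with Rnaseh1 plus Supt6, against 83.8 and 64.1 TPM with Rnaseh1 and 3.67 and 4.69 TPM with mCherry. Pate2, a gene known from the male reproductive tract, was at 40.6 and 37.4 TPM, against 267 and 307 TPM with Rnaseh1 and 20.7 and 21.9 TPM with mCherry. Spata24 was at 33.7 and 26.3 TPM, against 198 and 182 TPM with Rnaseh1 and 16.9 and 18.9 TPM with mCherry. These 3 genes fell and still stood above mCherry (limma adjusted p of 0.02, 0.0082 and 0.027). The remaining 4 were low or uneven between replicates. The small cytoplasmic RNA Bc1 was at 38.3 and 61.7 TPM, against 262 and 1114 TPM with Rnaseh1 and 360.0 and 321 TPM with mCherry, and its call ended when trends with GC content and length were removed (-1.62, limma adjusted p = 0.067). The immunoglobulin gene segment Igkv8-26 was at 6.41 and 2.42 TPM, against 56.3 and 38.4 TPM with Rnaseh1 and 3.16 and 10.5 TPM with mCherry. Smim9 was at 2.14 and 0.26 TPM, against 14.2 and 10.9 TPM with Rnaseh1 and 7.12 and 3.03 TPM with mCherry. Ctxn2 was at 1.55 and 1.13 TPM, against 22.3 and 8.72 TPM with Rnaseh1 and 2.36 and 0.99 TPM with mCherry. Bc1 ended below both mCherry libraries, whereas the levels of the other 3 with Supt6 and with mCherry were all at 10.5 TPM or less.

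The 15 genes that rose most and the 15 that fell most differed in the base composition of their transcripts. The longest protein-coding transcript, or the longest transcript of a gene with none, had a median GC content of 57.6% in the 15 genes that rose most (51.3% to 62.8%), of 43.5% in the 15 that fell most (38.9% to 53.8%) and of 48.9% in the 12708 tested genes with a value. Shown for the composition are 90 bases from the middle of the coding sequence of 3 genes that rose and 3 that fell, from the GENCODE M21 transcripts on GRCm38, 5′ to 3′, with G and C in capitals.
Rln3, rose: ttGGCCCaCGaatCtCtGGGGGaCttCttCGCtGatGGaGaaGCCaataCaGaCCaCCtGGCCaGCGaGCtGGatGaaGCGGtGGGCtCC
Ppme1, rose: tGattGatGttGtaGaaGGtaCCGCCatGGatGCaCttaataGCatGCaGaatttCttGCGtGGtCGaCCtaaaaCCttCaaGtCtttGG
Eif5a, rose: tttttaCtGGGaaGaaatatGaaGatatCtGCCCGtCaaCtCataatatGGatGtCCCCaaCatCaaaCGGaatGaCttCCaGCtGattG
Vapa, fell: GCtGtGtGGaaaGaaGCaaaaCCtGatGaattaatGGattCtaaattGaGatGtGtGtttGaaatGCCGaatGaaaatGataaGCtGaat
Ccl2, fell: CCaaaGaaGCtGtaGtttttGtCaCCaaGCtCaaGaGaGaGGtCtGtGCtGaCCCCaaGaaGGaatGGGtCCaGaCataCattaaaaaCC
Slirp, fell: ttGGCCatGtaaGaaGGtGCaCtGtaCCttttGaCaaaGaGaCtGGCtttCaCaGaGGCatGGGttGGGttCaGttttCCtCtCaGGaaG
G and C made up 60.0%, 43.3% and 40.0% of the stretches of Rln3, Ppme1 and Eif5a, and 34.4%, 45.6% and 47.8% of those of Vapa, Ccl2 and Slirp. The short stretches of Ppme1 and Eif5a were thus no richer in G and C than those of Ccl2 and Slirp. Over the whole transcript the GC content was 61.4% for Rln3, 53% for Ppme1 and 55.0% for Eif5a, against 42.7% for Vapa, 43.4% for Ccl2 and 43.2% for Slirp. Over all 15 genes per direction the ranges overlapped, since Spata24 (53.8%) and Aig1 (51.3%) fell while Rsc1a1 (51.3%) and Elovl1 (52.5%) rose.

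Across the 12708 genes, the log2 fold change increased with GC content (Spearman's rho 0.46, a description across genes of the same 4 libraries). In the decile of genes with the lowest GC content, up to 41.2%, the median was -0.35, 10.3% of genes rose and 37.9% fell. In the decile with the highest, from 57.2%, the median was 1.16, 65.7% rose and 4.18% fell. The medians of the 10 deciles increased at every step. Against mCherry the same libraries ran the other way, from 0.12 in the lowest decile to -0.37 in the highest (rho -0.32), so that the GC-rich genes lay on average between the Rnaseh1 and mCherry levels. Removing the trend left a rho of -0.01, with 3230 genes higher and 3168 lower. Of the 30 genes with the largest changes, all 30 kept their call in that fit.

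Transcript length ran with the change mainly at the short end. In the decile of genes with the shortest transcripts, up to 894 bases, the median log2 fold change was -0.48, 14.6% of genes rose and 39.2% fell. It was 0.38 in the next decile, reached 0.74 in the decile from 1823 to 2245 bases, and was 0.34 in the decile with the longest. The rho over all genes was 0.08 with length, 0.16 with the number of exons and -0.03 with the span of the gene. Within deciles of GC content, the rho with length ran from -0.08 to 0.30, with a median of 0.22. With the GC trend removed it was 0.17 over all genes. Protein-coding genes (11121) had a median of 0.53, with 45.1% rising and 15.6% falling, and long intergenic noncoding RNAs (764) one of -0.36, with 14.9% rising and 31.9% falling. The noncoding genes were also shorter, with a median length of 896 against 2995 bases, and poorer in GC, at 46.2% against 49.3%.

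**Figure D3:**
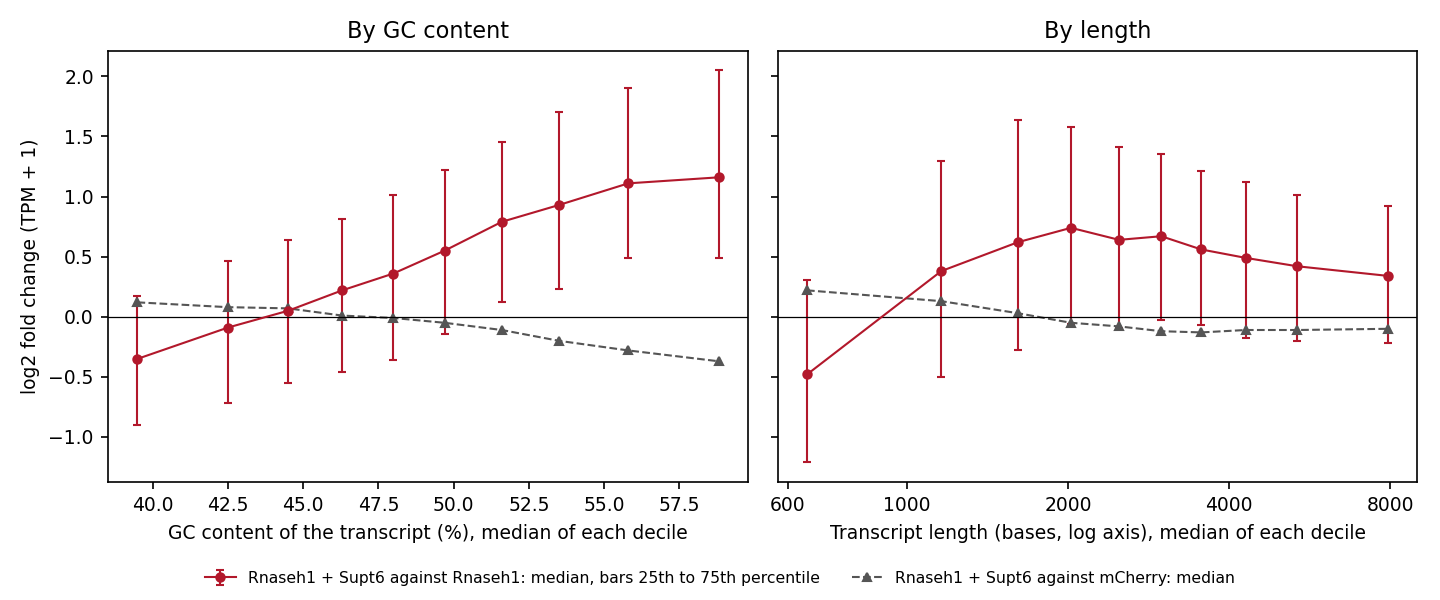
Median log2 fold change of Rnaseh1 plus Supt6 against Rnaseh1 (circles, bars from the 25th to the 75th percentile of genes) and against mCherry (triangles) in deciles of the genes by transcript GC content (left) and length (right, log axis). The first climbs from -0.35 to 1.16 with GC content while the second drops from 0.12 to -0.37, and the decile with the shortest transcripts stands apart at -0.48.

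Composition of the promoter did not run with the change. Over the 7747 genes with 1 promoter in the RefSeq table on GRCm38.p6, 250 bases before to 50 after the start, the rho was 0.04 with promoter GC content and 0.02 with the number of CG dinucleotides. Within deciles of transcript GC content the latter ran from -0.05 to 0.10. A pair of promoters is shown because they go against the order of the transcripts, with each CG in capitals, read 5′ to 3′ along the minus strand on which both genes lie. Ppme1, which rose, has its promoter at chr7:100371847-100372146, with 21 CG and a GC content of 60.0%. Vapa, which fell, has its promoter at chr17:65613506-65613805, with 40 CG and a GC content of 75.3%.
Ppme1: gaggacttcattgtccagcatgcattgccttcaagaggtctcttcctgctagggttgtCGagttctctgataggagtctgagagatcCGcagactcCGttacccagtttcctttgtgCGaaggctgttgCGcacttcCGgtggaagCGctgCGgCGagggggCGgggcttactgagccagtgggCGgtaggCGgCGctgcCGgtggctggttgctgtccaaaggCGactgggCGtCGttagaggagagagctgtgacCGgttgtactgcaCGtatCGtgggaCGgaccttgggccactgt
Vapa: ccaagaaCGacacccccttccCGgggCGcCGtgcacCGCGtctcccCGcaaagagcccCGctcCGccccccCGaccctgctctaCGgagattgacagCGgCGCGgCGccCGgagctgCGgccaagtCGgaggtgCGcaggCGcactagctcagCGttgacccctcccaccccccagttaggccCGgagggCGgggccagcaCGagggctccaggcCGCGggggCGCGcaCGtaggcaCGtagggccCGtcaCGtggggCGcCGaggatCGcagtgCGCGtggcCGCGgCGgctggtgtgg
CG is its own reverse complement, so both strands hold the same number. Of 32851 promoters of this length in the table, 94.6% hold a CG, with a median of 7.

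The 28 gene lists began with the machinery in which Spt6 works, and their counts stand against 41.6% rising and 17.4% falling over all genes tested. Counts with the GC trend removed stand against 3230 rises and 3168 falls among the 12708 genes of that fit. Of 31 tested transcription elongation factors and Spt6 partners, 16 rose and 5 fell, and the median was 0.72, or 0.28 above that of all genes. With the GC trend removed 8 rose and 6 fell. Of the pause factor NELF, the 4 subunits tested rose in the deposited scale, with Nelfa at 53.6 and 54.7 TPM with Rnaseh1 plus Supt6, against 11.3 and 8.84 TPM with Rnaseh1 and 138 and 131 TPM with mCherry, a log2 fold change of 2.32 (SE 0.14, limma adjusted p = 1.4e-05). Nelfcd followed at 1.82, Nelfb at 1.61 and Nelfe at 0.91. With the GC trend removed, Nelfb (0.46, limma adjusted p = 0.39) did not pass and Nelfe turned to -0.38 (limma adjusted p = 0.084), and both calls also ended after median centring. That of Nelfb ended too without Rnaseh1 replicate 1 or Rnaseh1 plus Supt6 replicate 2 (limma adjusted p of 0.067 and 0.073). Ccnt1, the cyclin of the pause-release kinase P-TEFb, was at 18.4 and 23.8 TPM, against 3.07 and 3.69 TPM with Rnaseh1 and 38.5 and 31.7 TPM with mCherry (2.33, SE 0.20). The kinase gene itself, Cdk9, rose by 1.16, a call that ended after median centring (0.65, limma adjusted p = 0.12), without either library with Supt6 and with the GC trend removed (-0.02, adjusted p = 0.96). Ssrp1 of the histone chaperone FACT rose by 1.60, while its partner Supt16 (0.46) did not pass, nor did Iws1 (-0.15), the protein that binds Spt6 directly. Aff4, Eaf2 and the PAF1 complex gene Cdc73 fell, at -1.51, -1.42 and -1.25, while Paf1 (1.12), Leo1 (1.06) and Rtf1 (0.72) rose. With the GC trend removed the calls of Cdc73 (-0.79, limma adjusted p = 0.08), Paf1 (0.22, 0.16) and Rtf1 (0.41, 0.12) ended, and with the trend with length removed too those of Leo1 (0.12, 0.33) and Nelfcd (0.41, 0.063). Those of Aff4, Eaf2, Cdc73 and Rtf1 also ended when 1 library was left out, either of those with Supt6 among them.

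The 12 subunits of RNA polymerase II lay 0.72 below all genes, with a median of -0.28, 2 rises and 5 falls, and 1 and 8 with the GC trend removed. Relative to all genes their median was -1.02 in that fit and -0.49 with the length trend removed too. After quantile normalization it was -0.39. Polr2c was at 843 and 898 TPM with Rnaseh1 plus Supt6, against 117 and 130.0 TPM with Rnaseh1 and 934 and 926 TPM with mCherry (2.81, SE 0.08, limma adjusted p = 1.3e-06). Polr2k went the opposite way, at 686 and 678 TPM, against 2089 and 1909 TPM with Rnaseh1 and 562 and 513 TPM with mCherry (-1.55, SE 0.08). Polr2j fell by 1.10 and Polr2g by 0.76. Subunits of 1 complex thus moved in both directions.

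The next lists hold enzymes of the histone marks that the study's title names. Of 12 tested enzymes that write or erase H3K36 methylation, 5 rose and 1 fell, at 0.16 above all genes, and 3 rose and 4 fell with the GC trend removed. The share that rose was that of all genes, 41.6%, within 1 gene. Setmar rose by 2.43, Nsd2 by 2.08, Smyd2 by 2.07 and Nsd1 by 1.13, and the call of Smyd2 ended with the GC trend removed (0.88, limma adjusted p = 0.053). Setd2, which writes trimethylation of H3K36, was at 0.05 and did not pass. Of 17 tested members of the complexes that methylate H3 at lysine 4 (H3K4), 11 rose and 2 fell, at 0.45 above all genes, but 3 and 3 with the GC trend removed. The subunit gene Wdr5 was at 102 and 127 TPM with Rnaseh1 plus Supt6, against 33.4 and 25 TPM with Rnaseh1 and 193 and 214 TPM with mCherry (1.95, SE 0.17). Dpy30, of the same core, was at 540.0 and 509 TPM, against 1625 and 1669 TPM with Rnaseh1 and 365 and 350.0 TPM with mCherry, and fell by 1.65 (SE 0.07, limma adjusted p = 3.3e-06). Ash2l rose by 1.44 and Men1 by 1.49, the second of which ended at 0.17 with the GC trend removed (limma adjusted p = 0.41).

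The 5 H3K4 demethylases lay 1.15 below all genes, with 3 falls and 0 rises, and 4 and 0 with the GC trend removed. Kdm5a was at 26.9 and 17.8 TPM with Rnaseh1 plus Supt6, against 96.7 and 129 TPM with Rnaseh1 and 44.1 and 37.4 TPM with mCherry, a log2 fold change of -2.30 (SE 0.22, limma adjusted p = 0.00013). It ended below mCherry, by -0.86 (limma adjusted p = 0.048). Kdm5c fell by 1.52 and Kdm1b, the demethylase of growing oocytes, by 0.71, and the call of Kdm1b ended when 1 library was left out, Rnaseh1 replicate 2 (-0.68, limma adjusted p = 0.053) or Rnaseh1 plus Supt6 replicate 1 (-0.60, adjusted p = 0.086).

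Of 27 tested factors that prevent or resolve R-loops, 13 rose and 3 fell, with a median of 0.44 that equalled that of all genes within 0.01, and 11 rose and 1 fell with the GC trend removed. Top3b, a topoisomerase that acts on RNA and DNA, was at 116 and 112 TPM with Rnaseh1 plus Supt6, against 13.4 and 10 TPM with Rnaseh1 and 134 and 145 TPM with mCherry (3.19, SE 0.15, limma adjusted p = 4.5e-06). Thoc6 and Thoc3, of the THO complex that packages nascent RNA, rose by 3.09 and 2.31, and the helicase gene Recql5 by 2.28. The share of the list that rose, 13 of 27, was close to the 41.6% of all genes.

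Histone chaperones and the linker histone split. Of 22 tested, 12 rose and 7 fell, at 0.07 above all genes, and 9 and 7 with the GC trend removed. H1f8, the linker histone of oocytes, was at 9064 and 9748 TPM with Rnaseh1 plus Supt6, against 2072 and 2057 TPM with Rnaseh1 and 6442 and 6749 TPM with mCherry. It rose by 2.19 (SE 0.06, limma adjusted p = 1.3e-06) and stood 0.51 above mCherry (limma adjusted p = 0.0056). The paralogs Asf1b and Asf1a, which hand histones H3 and H4 to other chaperones, moved apart. Asf1b was at 492 and 525 TPM, against 66.2 and 77.1 TPM with Rnaseh1 and 355 and 333 TPM with mCherry (2.81, SE 0.10). Asf1a was at 390.0 and 432 TPM, against 1189 and 1199 TPM with Rnaseh1 and 157 and 155 TPM with mCherry (-1.54, SE 0.08), and stayed 1.39 above mCherry. Chaf1a, of the assembly factor CAF-1, rose by 3.38, Hira by 2.04 and Ubn1 by 1.69 (0.83 with the GC trend removed, limma adjusted p = 0.08), while Set fell by 2.62 and Nap1l1 by 1.11, where pseudogenes make the value of Set uncertain.

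In the deposited scale, most of the tested genes of the oocyte rose with Supt6. Of 39 tested oocyte and maternal-effect genes, 27 rose and 5 fell, with a median of 0.91, or 0.46 above all genes, and 24 and 10 with the GC trend removed. After median centring 19 rose and 10 fell, and after quantile normalization 29 and 6. The zona pellucida gene Zp3 was at 3859 and 4054 TPM with Rnaseh1 plus Supt6, against 583 and 567 TPM with Rnaseh1 and 3002 and 3157 TPM with mCherry (2.78, SE 0.06, limma adjusted p = 8.9e-07). Zp1 was at 1187 and 1282 TPM, against 129 and 117 TPM with Rnaseh1 and 1266 and 1381 TPM with mCherry (3.32, SE 0.09). Gdf9, a growth factor that acts on the follicle, was at 7142 and 7397 TPM, against 1385 and 1170.0 TPM with Rnaseh1 and 6572 and 7032 TPM with mCherry (2.51, SE 0.09). Against mCherry, Zp3 was higher by 0.36 (limma adjusted p = 0.015), while Zp1 at -0.10 and Gdf9 at 0.10 did not pass (0.52 and 0.56). Zp2, of the same coat, rose less, by 1.18, and Bmp15, the partner of Gdf9, did not pass (0.10). Of the genes of DNA methylation, Dnmt3l rose by 3.03 and Dnmt1 by 1.01, while Dnmt3a fell by 0.73. The call of Dnmt1 ended with the GC trend removed (-0.02, limma adjusted p = 0.93) and after median centring, and that of Dnmt3a without Rnaseh1 plus Supt6 replicate 2 (-0.65, limma adjusted p = 0.051). The subcortical maternal complex genes Khdc3, Padi6 and Nlrp5 rose by 2.76, 2.47 and 1.70, and Ooep was at -0.11 and did not pass. Tle6, of the same complex, was called at 0.45, the median of all genes being 0.44, but turned to a called fall of -0.76 with the GC trend removed (limma adjusted p = 0.00021) and to -0.07 after median centring (adjusted p = 0.54). Oosp2, an oocyte-secreted protein, fell, at 1954 and 1837 TPM against 7598 and 7659 TPM with Rnaseh1 and 1450.0 and 1337 TPM with mCherry (-2.01, SE 0.07). Dppa3, which protects maternal DNA methylation, fell by 1.10.

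Of 37 tested genes of meiotic maturation and the cell cycle, 26 rose and 4 fell, with a median of 1.22, or 0.77 above all genes, and 22 and 5 with the GC trend removed. Mos, the kinase that starts the MAP kinase cascade of meiosis, was at 678 and 672 TPM with Rnaseh1 plus Supt6, against 45.1 and 41.5 TPM with Rnaseh1 and 896 and 863 TPM with mCherry (3.93, SE 0.08, limma adjusted p = 8.9e-07). Plk1, a kinase of spindle assembly, was at 137 and 147 TPM, against 11.7 and 13.9 TPM with Rnaseh1 and 243 and 249 TPM with mCherry (3.38, SE 0.12). Cdk1, which drives entry into meiosis, was at 201 and 229 TPM, against 32.7 and 35.7 TPM with Rnaseh1 and 220.0 and 229 TPM with mCherry (2.61, SE 0.10). Mapk3, a kinase downstream of Mos, rose by 3.32. Mos, Plk1 and Mapk3 remained lower than with mCherry (-0.38, -0.79 and -0.75, limma adjusted p of 0.024, 0.0095 and 0.019), and Cdk1 was at -0.07 (limma adjusted p = 0.76).

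Haus1 went against most of the list it belongs to. Of 15 tested genes of augmin and the gamma-tubulin ring, 9 rose and 2 fell, at 0.85 above all genes, and 6 and 2 with the GC trend removed. Relative to all genes their median was 0.42 in that fit and 0.3 with the length trend removed too. Besides Haus1, Haus3 fell by 0.59, while Haus8 (2.12), Haus7 (1.97), Haus5 (1.73) and Haus4 (1.29) of the same complex rose. With the GC trend removed the calls of Haus3 (-0.14, limma adjusted p = 0.15), Haus5 (0.52, 0.071) and Haus4 (0.15, 0.33) ended. The gamma-tubulin genes Tubg1 and Tubg2 rose by 3.04 and 2.72. Ppme1 and Vapa likewise stood at the edge of lists that moved in both directions. Of 21 tested PP2A genes, 10 rose and 6 fell, at 0.07 below all genes, among them the scaffold gene Ppp2r1a at 2.28 and the inhibitor gene Arpp19 at -1.66, with 5 and 6 once the GC trend was removed. Of 21 proteins that VAP proteins bind at membrane contacts or that belong to their family, 8 rose and 4 fell, at 0.21 below all genes, and 5 and 5 with the GC trend removed. The shares of both lists that rose were near the 41.6% of all genes, and the second list's falls were near the 17.4% of all genes. The sterol-binding protein genes Osbpl10 and Osbpl2 rose by 2.06 and 1.70, and Vapb, the paralog of Vapa, was at 0.10 and did not pass.

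Eif5a led the translation factors. Of 42 tested, 21 rose and 13 fell, at 0.03 below all genes, and 14 and 16 with the GC trend removed. Dohh and Dhps, the enzymes that make hypusine on eIF5A, rose by 3.39 and 1.21, and the call of Dhps ended with the GC trend removed (0.04, limma adjusted p = 0.9) and after quantile normalization (0.58, adjusted p = 0.082). The elongation factor gene Eef2 was at 40.7 and 41.0 TPM with Rnaseh1 plus Supt6, against 4.70 and 5.68 TPM with Rnaseh1 and 67.9 and 75.2 TPM with mCherry (2.76, SE 0.15, limma adjusted p = 7.7e-06). Eif3l rose by 2.19 and Eif6 by 1.95, while Eef1b2 fell by 1.65 and Eif3a by 1.51. Only 3 of 51 cytosolic ribosomal protein genes were in the table under these symbols, of which 1 rose.

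The nuclear genes of oxidative phosphorylation mostly fell with Supt6. Of 74 tested, 42 fell and 21 rose, against 17.4% and 41.6% of all genes, and the median was -0.40, or 0.84 below all genes. With the GC trend removed, 54 of the 73 genes in that fit fell and 11 rose. The size of the offset differed between fits, for reasons that were not tested. Relative to all genes the median was -1.3 with the GC trend removed and -0.69 with the length trend removed too. After quantile normalization it was -0.39. Ndufa12 of complex I was at 215 and 187 TPM with Rnaseh1 plus Supt6, against 1010.0 and 953 TPM with Rnaseh1 and 93.8 and 85.3 TPM with mCherry (-2.28, SE 0.10, limma adjusted p = 3.7e-06). Cox7c of cytochrome c oxidase was at 542 and 530.0 TPM, against 2865 and 2363 TPM with Rnaseh1 and 382 and 348 TPM with mCherry (-2.28, SE 0.10). Cox6c, of the same enzyme, fell by 1.56. All 3 remained above mCherry (1.16, 0.56 and 0.34, limma adjusted p of 0.0027, 0.018 and 0.027). Members that rose were the complex I genes Ndufv1 at 2.72 and Ndufa10 at 2.03, and Uqcrc1 and Cyc1 of complex III at 2.59 and 2.36.

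**Figure D4:**
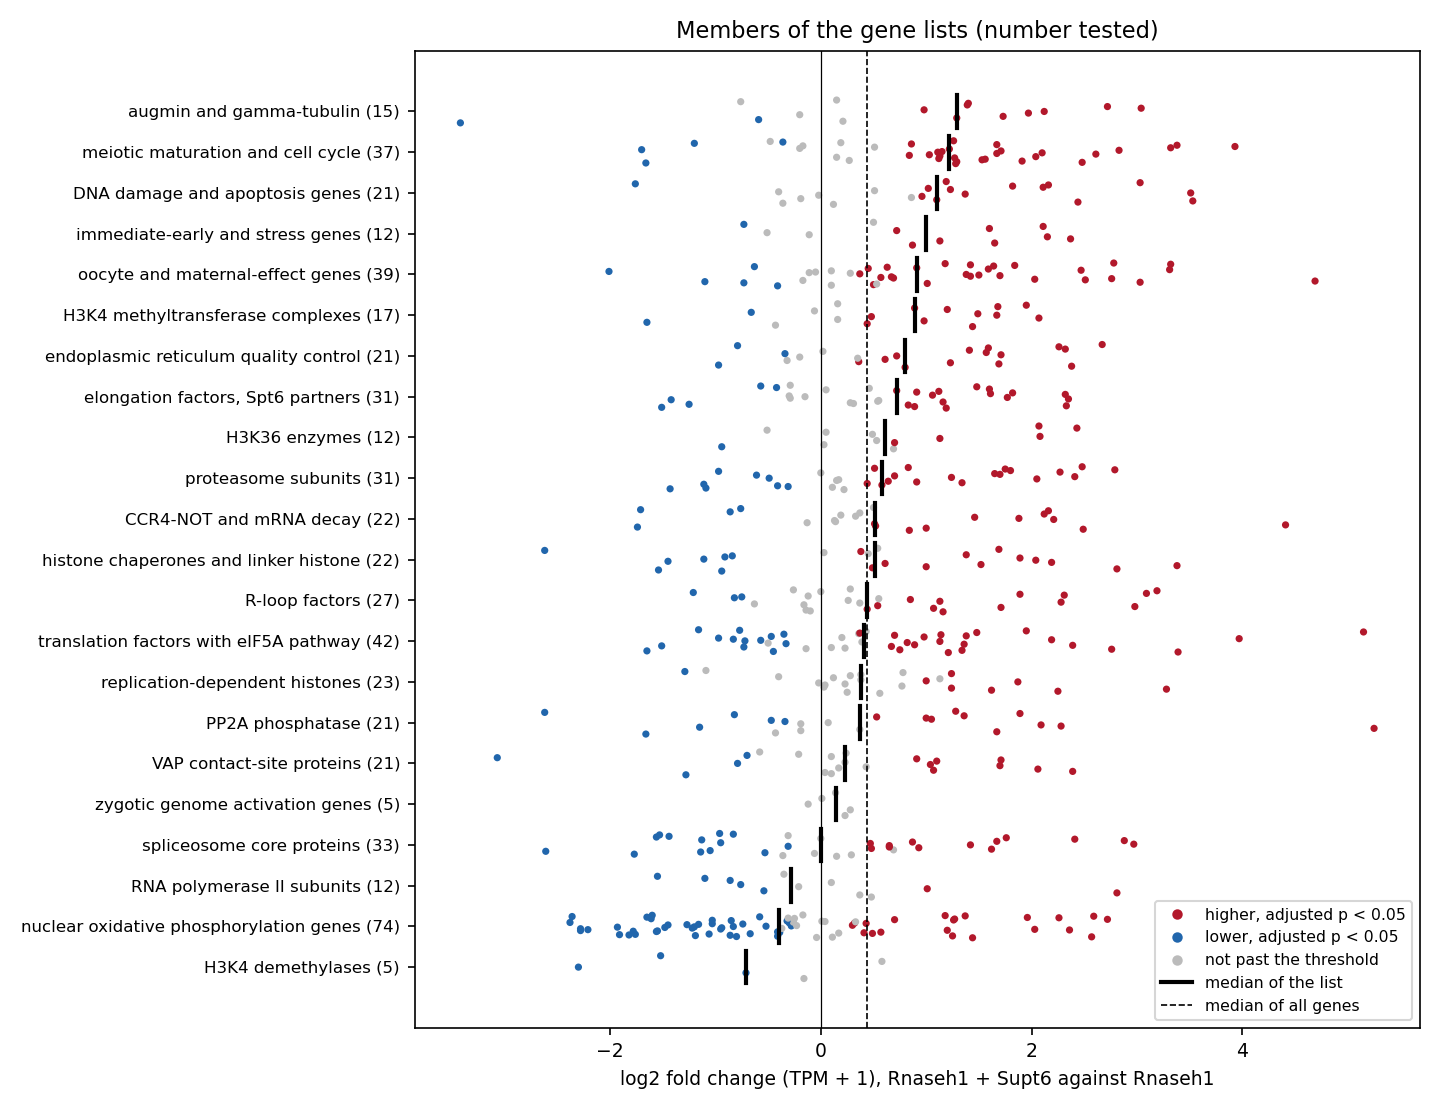
Log2 fold change of Rnaseh1 plus Supt6 against Rnaseh1 for each tested member of the gene lists with at least 5 members tested, coloured by the limma call, with the median of each list as a bar and that of all genes, 0.44, as a dashed line. The augmin and meiotic lists lie furthest to the right, at 1.29 and 1.22, and H3K4 demethylases and oxidative phosphorylation furthest to the left, at -0.71 and -0.40.

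The NSN and SN libraries of the series share no library with the rescue set and compare Rnaseh1 with mCherry in oocytes whose nucleolus is not surrounded (NSN, earlier) or surrounded (SN, later) by chromatin. They ask where genes ranked by their difference with Rnaseh1 elsewhere lay when Supt6 was added. No single gene passed there: of 12340 genes tested, limma called 0 in SN and 0 in NSN oocytes, with 827 and 344 at an unadjusted p under 0.05. The 200 genes with the smallest p for a higher level with Rnaseh1 in SN oocytes had a median of -0.81 in Rnaseh1 plus Supt6 against Rnaseh1, with 129 falling and 9 rising. The 200 with the smallest p for a lower level had a median of 1.34, with 2 falling and 143 rising. The corresponding NSN genes had medians of -1.12 (121 falling and 5 rising) and 0.63 (9 falling and 82 rising). All 11456 genes shared with the rescue set had a median of 0.43. Over all genes tested in the rescue set, 41.6% rose and 17.4% fell. Of the NSN genes lower with Rnaseh1, 41.0% rose, near the share of all genes, and 4.5% fell. With the GC trend removed from the rescue set the medians were -0.84 and 0.55 for the SN genes and -1.26 and 0.05 for the NSN genes.

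The libraries of that set that differed most from their replicates were NSN Rnaseh1 replicate 2 and SN mCherry replicate 2. Eif5a was at 134 and 0.68 TPM in the 2 NSN libraries with Rnaseh1 and at 24.2 and 522 TPM in the 2 SN libraries with mCherry. The 200 genes per direction were then ranked anew without them, an alternative chosen after the data were seen, which leaves an arm with 1 library whose spread is taken to be that of the other groups. Without NSN Rnaseh1 replicate 2 alone, the NSN genes had medians of -0.06 (46 falling and 49 rising) and 0.19 (30 falling and 45 rising), so the NSN result rested on that library. Without SN mCherry replicate 2 alone, the SN genes had medians of -0.47 (85 falling and 29 rising) and 0.48 (15 falling and 67 rising). Both medians were nearer to 0 than with all libraries, and the second was near the 0.43 of all genes. Of the SN genes chosen without it, 121 of the 200 higher and 90 of the 200 lower ones were among those chosen with all libraries. Without both, the SN medians were -0.67 (107 falling and 36 rising) and 1.58 (6 falling and 156 rising), over sets that shared 104 and 44 genes with the first ones, and the NSN medians were 0.18 and 0.07. Across 11456 genes of both tables, Pearson's r between the SN difference and the change with Supt6 was -0.71 with all libraries and -0.32 without the 2, and for NSN it was -0.61 and 0.01. These are descriptions across genes, which are not independent replicates, and the SN and NSN differences also ran with GC content (rho -0.48 and -0.31). In the SN libraries with Rnaseh1, Rln3 was at 4.65 and 4.89 TPM against 15.6 and 74.0 TPM with mCherry, and Haus1 at 271 and 229 TPM against 183 and 53.1 TPM.

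**Figure D5:**
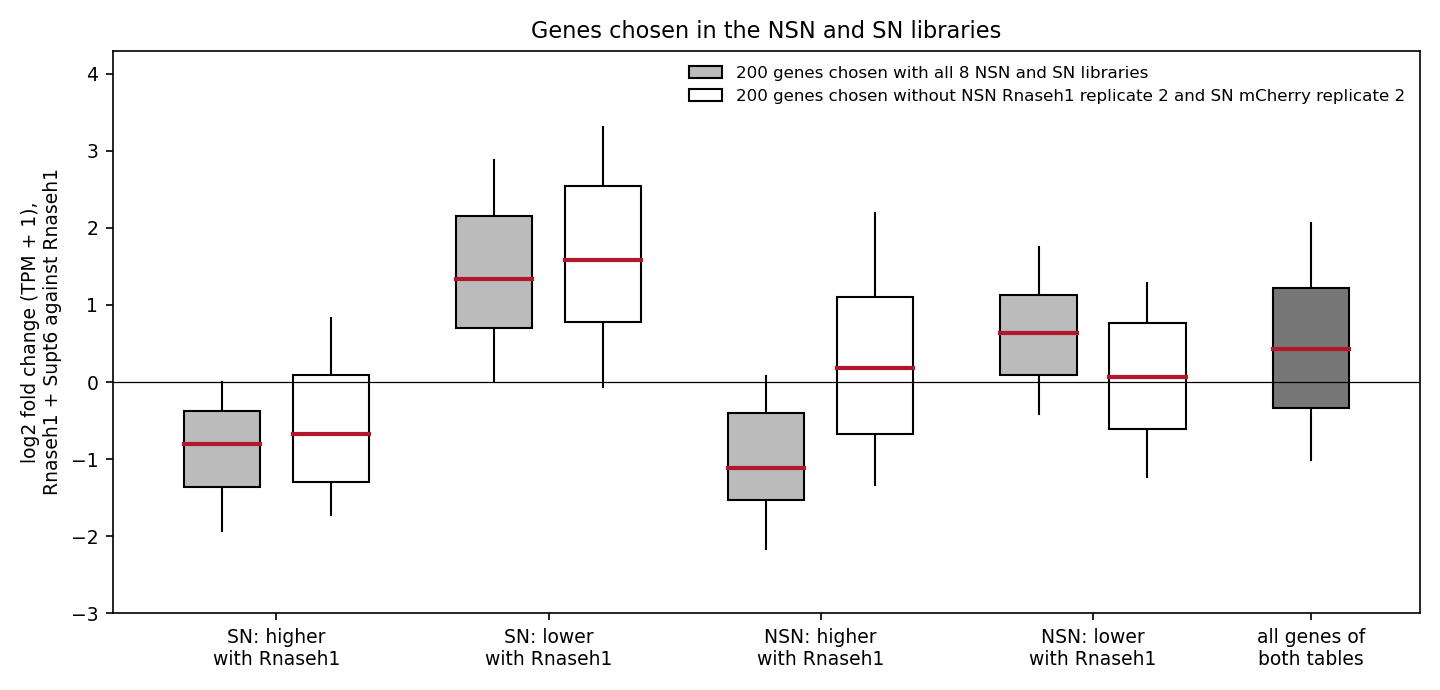
Log2 fold change of Rnaseh1 plus Supt6 against Rnaseh1 for 200 genes per direction chosen by the smallest p for Rnaseh1 against mCherry in the SN or NSN libraries, with the median in red, the box from the 25th to the 75th and the line from the 10th to the 90th percentile. SN genes lower with Rnaseh1 lie at a median of 1.34 with all libraries (grey) and 1.58 where the genes are chosen anew without the 2 libraries (white), and NSN genes chosen anew lie at 0.18 and 0.07. Chosen without SN mCherry replicate 2 alone, which is not drawn, the SN genes lower with Rnaseh1 lie at 0.48. The median of all genes is 0.43.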

How the data were processed

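Polyadenylated RNA of mouse oocytes was reverse transcribed with SuperScript II and amplified with KAPA HiFi polymerase before library construction (Vazyme TD503), per the labels' protocols. The authors deposited TPM per gene and library. The submitters' processing notes list RSEM 1.3.3, STAR 2.7.0d, Trim Galore 0.6.7, DESeq2 and the mm10 build, with no role for each. Depth is unknown, so no counting error is given, and amplification can act differently on transcripts of different GC content, which was not tested.

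Genes with TPM of at least 1 in 2 or more rescue libraries were fitted as log2(TPM + 1) with limma 3.58.1 (R 4.3.3), with 3 group means, 3 residual degrees of freedom and Benjamini-Hochberg adjustment over 12859 genes (threshold 0.05). Fold changes on that scale understate changes of low genes. The script was tested on simulated data. The genes named were Supt6, Rnaseh1, Rln3, Ppme1, Eif5a, Haus1 and Vapa, then the 15 per direction with the largest change among called genes whose groups did not overlap and with a mean of at least 5 TPM in the higher group (gene models left out), and up to 4 members with the smallest p of each list with at least 5 tested and 1 called. Other list members given as log2 values were chosen after their values were seen. Members and lists were chosen with earlier results of these data known. GC content and length came from GENCODE M21 (GRCm38), which matched 34497 of the symbols. Strand use in the counting is not given in the sources used here, and genes with near-identical copies or overlaps are uncertain.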

Additional observations from a re-analysis of the deposited data

How the results depend on the processing

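Against Rnaseh1, the 5343 rises became 3230 with the GC trend removed, 3036 with GC and length trends removed (added after seeing the data), 3199 with the GC trend removed and the replicate block, 1908 against a minimum log2 change of 1, 3370 after median centring and 3472 after quantile normalization, and the 2235 falls became 419, 3855 and 3747 in the last 3. Leaving out 1 library gave 3959 to 5348 rises and 1592 to 2164 falls. The replicate block gave 5300 and 2235. The replicate differences of the groups correlated at 0.038 or less across genes, so no large shared effect of the replicate number was seen. These values cannot show whether the libraries were prepared in pairs. Against mCherry, the 734 higher genes became 1241 with library weights, 412 without a filter and 1 against a minimum log2 change of 1, and the 977 lower genes became 546 with the GC trend removed, 454 with GC and length trends removed, 474 with the GC trend removed and the replicate block, 1666 with weights, 515 without a filter and 3 against the minimum. Leaving out 1 library gave 24 to 1005 higher and 41 to 1394 lower. Kdm5b, at 0.58 and not past the threshold, was at -0.003 after quantile normalization. Of the 32 genes of the largest changes with Supt6 and Rnaseh1, 30 or more kept their call in each alternative, the exceptions being Rnaseh1 and Bc1. The causes of these shifts were not tested. With 2 libraries per group and an unknown depth, genes near 1 TPM are the least certain.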

Other observations

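Genes of the DNA damage response and apoptosis were largely higher with Rnaseh1 plus Supt6 than with Rnaseh1. Of 21 tested, 13 rose and 1 fell, at 0.66 above the median of all genes, and 11 and 1 with the GC trend removed. The histone variant gene H2ax, whose protein is phosphorylated at DNA breaks, was at 72.6 and 78.3 TPM with Rnaseh1 plus Supt6, against 5.51 and 5.93 TPM with Rnaseh1 and 117 and 127 TPM with mCherry (3.51, SE 0.12, limma adjusted p = 2.2e-06). Bcl2l1, which protects cells from apoptosis, was at 30.9 and 31.6 TPM, against 2.08 and 1.51 TPM with Rnaseh1 and 121 and 128 TPM with mCherry, and remained lower than with mCherry (-1.96, limma adjusted p = 0.0024). Bcl2l10, its oocyte relative, rose by 1.10, and Rpa3, of the single-strand binding complex RPA, fell by 1.76. Of 12 tested immediate-early and stress genes, 8 rose and 1 fell, with Dnajb1 at 2.37, Dusp1 at 2.15, Atf4 at 1.65 and Hspa8 at 1.60, and 5 and 4 with the GC trend removed. Of 21 tested genes of quality control in the endoplasmic reticulum, 14 rose and 3 fell, with Calr at 2.38, Sdf2l1 at 2.26, Pdia6 at 1.59 and Hspa5 at 1.57, and 12 and 5 with the GC trend removed.

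Large complexes moved in both directions. Of 33 spliceosome core proteins, 13 rose and 13 fell, at 0.45 below all genes, and 6 and 17 with the GC trend removed. Relative to all genes their median was -0.41 in that fit and -0.16 with the length trend removed too. Lsm7 was at 550.0 and 463 TPM with Rnaseh1 plus Supt6, against 3271 and 2910.0 TPM with Rnaseh1 and 240.0 and 226 TPM with mCherry (-2.61, SE 0.10, limma adjusted p = 2.9e-06). Lsm3 fell by 1.77 and Snrpd1 by 1.56, while Snrpc rose by 1.76. Of 31 proteasome subunits, 18 rose and 8 fell, and 11 and 12 with the GC trend removed, with Psmd8 at 2.48, Psmc4 at 2.41, Psmd4 at 1.75 and Psma2 at -1.43. Of 22 tested genes of the CCR4-NOT deadenylase and mRNA decay, 11 rose and 4 fell, at 0.06 above all genes and near the 41.6% and 17.4% of all genes, and 12 and 4 with the GC trend removed. The scaffold gene Cnot1 rose by 2.49, Cnot8 by 2.21 and Btg4, the adaptor for maternal mRNA clearance, by 0.84. Cnot3 was at 50.9 and 56.9 TPM, against 0.84 and 2.63 TPM with Rnaseh1 and 102 and 135 TPM with mCherry (4.41, SE 0.31, limma adjusted p = 2.9e-05).

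Of 5 tested genes of zygotic genome activation, 0 passed limma's threshold in either direction. Of 23 tested replication-dependent histone genes, 7 rose and 1 fell, and 3 and 3 with the GC trend removed. Near-identical copies make these values uncertain. H2ac1 rose by 2.25, H2ac19 by 3.28, H2aw by 1.24 and H4c9 by 1.24, and the calls of H2aw and H4c9 ended after quantile normalization (limma adjusted p of 0.051 and 0.08), that of H4c9 also after median centring (0.069) and without Rnaseh1 plus Supt6 replicate 1 (0.067).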
